A study of Homo sapiens with 8 samples.

Results

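This report describes 10 long noncoding RNA genes: 8 host genes of small nucleolar RNAs (SNHG1, SNHG5, SNHG6, SNHG7, SNHG8, SNHG12, SNHG15 and GAS5) and the nuclear RNAs MALAT1 and NEAT1. They were chosen by symbol from tables that hold 40693 gene symbols, and 6 of the 10 had a row: SNHG7, SNHG8, SNHG12, SNHG15, MALAT1 and NEAT1. SNHG1, SNHG5, SNHG6 and GAS5 were not analysed here. None of the 6 symbols was repeated, and all 6 passed the filter on low counts.

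RNA sequencing libraries came from SW620 and SW480, established human colorectal adenocarcinoma lines that the labels assign to Dukes' types C and B. The groups were SW620 carrying a short hairpin that targets FOXA2 (shFOXA2, 3 libraries), SW620 with a control hairpin (shNC, 3 libraries), untreated SW620 (1 library) and untreated SW480 (1 library). FOXA2 is a forkhead transcription factor that opens chromatin in endodermal tissues. Both hairpin groups carried a lentiviral vector with a U6 promoter and a puromycin resistance and mCherry cassette, and stable populations were selected with puromycin. The protocol lists 2 target sites in FOXA2, but the 3 shFOXA2 titles share 1 number before the replicate number, so no pair of hairpins could be compared. Nothing in the labels ties replicates to separate cultures, and p-values therefore measure only the spread between these libraries, which may be technical.

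Small nucleolar RNAs (snoRNAs) guide chemical modification of ribosomal RNA and are cut from introns of host genes. The spliced exons of a noncoding host gene have little coding potential. Many such RNAs are translated briefly and removed by nonsense-mediated decay, which degrades RNAs with an early stop codon, so their level depends on decay as well as on transcription. Many host genes start with a terminal oligopyrimidine tract, a run of C and T letters that begins with C and is shared with ribosomal protein genes. MALAT1 is an abundant RNA of nuclear speckles, stores of splicing factors, and its mature end is a triple helix in place of a poly(A) tail. NEAT1 is the scaffold of paraspeckles. Its short form is polyadenylated, and its long form, which builds paraspeckles, ends like MALAT1.

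The starts of the genes are shown because the pyrimidine run there is what host genes are known for. The sequences come from RefSeq on GRCh38.p14 and run from 10 bases before the annotated start, so the eleventh letter is the first transcribed base. Capitals mark a stretch of at least 6 C or T letters counted from a C within 5 bases of the start, on the gene's own strand only. Letters farther upstream were not searched, so a longer run is marked only from that limit on.
SNHG7, chr9:136728165-136728194, minus strand: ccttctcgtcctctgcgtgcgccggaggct
SNHG8, chr4:118278752-118278781, plus strand: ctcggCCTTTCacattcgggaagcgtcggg
SNHG12, chr1:28581854-28581883, minus strand: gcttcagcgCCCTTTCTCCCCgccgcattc
MALAT1, chr11:65497728-65497757, plus strand: ctctcCCCTCCgcagcctgcagcccgagac
The stretch was 12 letters long in SNHG12, where it begins 1 base before the annotated start, and 6 letters long in SNHG8, where it begins 5 bases before the start. In MALAT1 the 6 marked letters are the end of an uninterrupted run of 11 pyrimidines, of which 5 lie before the searched window, and RefSeq lists another MALAT1 start with no such stretch. In SNHG8 and MALAT1 all marked letters but the last lie before the annotated start. SNHG7 held none of that length, nor did SNHG1, SNHG5 and GAS5, and the annotated GAS5 start used here is an A. Such a stretch thus stood at 3 of the 7 listed genes with an entry and at 11.1% of 35116 promoters searched the same way, and it is a description of the letters only. A minimum of 5 letters, tried after the windows had been seen, gave 5 of the 7 genes, SNHG5 and SNHG7 being added, and 21.1% of all promoters. The table held no promoter for SNHG15 or NEAT1.

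SNHG7 (ENSG00000233016.2) is at chr9:136721366-136728184 on the minus strand (GRCh38), and the annotation places SNORA17A and SNORA17B within it. Its body overlaps 2685 bases of FAM69B, a protein-coding gene on the opposite strand. SNHG8 (ENSG00000269893.2) is at chr4:118278709-118279823 on the plus strand and hosts SNORA24. SNHG12 (ENSG00000197989.9) is at chr1:28578538-28583132 on the minus strand and hosts SNORA16A, SNORA44, SNORA61 and SNORD99. SNHG15 (ENSG00000232956.4) is at chr7:44983023-44986961 on the minus strand and hosts SNORA9. NEAT1 (ENSG00000245532.4) and MALAT1 (ENSG00000251562.3) are near each other, at chr11:65422774-65445540 and chr11:65497688-65506516, both on the plus strand. The tables give NEAT1 a length of 22767 bases, the span of its long form, so counts of the short and long forms are pooled.

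Total counts ran from 7478411 to 13076566 in the hairpin libraries, with 95935348 in untreated SW620 and 72323506 in untreated SW480. In the shallowest library, 3 counts amount to 0.401 CPM of the unscaled total. FOXA2 itself was measured at 30.3, 29.3 and 22.2 CPM, counts relative to the scaled library size, in shFOXA2 libraries 1 to 3 and at 52.5, 49.0 and 51.9 CPM in shNC libraries 1 to 3, so the labels and the targeted gene go together. Replicate 1 stood somewhat apart in both hairpin groups: the chi-square of counts between replicates, per degree of freedom, came to 3.98 to 4.61 in pairs with it and to 1.66 and 1.75 in the pairs without it. Without shFOXA2 replicate 1, and likewise without shNC replicate 1, 3 of the 6 genes described here passed the test reported next, in place of 4. Leaving out any other single hairpin library left 2, so the loss was not particular to replicate 1. Nor was it particular to these genes. Over all genes, 6280 passed with every hairpin library, 5783 without shFOXA2 replicate 1 and 5872 without shNC replicate 1. With any other hairpin library left out, 5299 to 5662 passed. The epithelial markers EPCAM and KRT8 were abundant in the hairpin libraries, at 279 and 4493 CPM in shFOXA2 and 306 and 4643 CPM in shNC. All 9 listed epithelial and colon markers passed the filter on low counts there, but not all were abundant in this line. In untreated SW620, CDX2, CDH17 and LGALS4 had 5.24, 1.27 and 0.565 CPM. Of 10 markers of other cell types, 4 passed the filter on low counts in the hairpin libraries.

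The first comparison asked how these RNAs differed when FOXA2 was lowered in SW620. Among the snoRNA host genes and relative to shNC, SNHG7 fell clearly, SNHG8 and SNHG12 fell slightly, and SNHG15 rose slightly. MALAT1 and NEAT1 did not pass the test. In all, 4 of the 6 genes passed an adjusted p of 0.05 (edgeR quasi-likelihood test with Benjamini-Hochberg adjustment over 16100 genes), 1 higher and 3 lower, where 39.0% of all genes tested passed, 19.2% higher and 19.8% lower. The groups did not overlap for 4 of the 6, against 48.7% of all genes tested. They did not overlap with shFOXA2 as the lower group for 3 of the 6, against 24.5% of all genes tested. The median log2 fold change of the 6 genes was -0.14, beside 0.01 for all genes tested.

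SNHG7, a host of H/ACA snoRNAs, had 53.4, 51.1 and 59.2 CPM in shFOXA2 libraries 1 to 3, against 78.5, 79.8 and 71.9 CPM in shNC libraries 1 to 3. Every shFOXA2 library lay below every shNC library. The means were 54.5 ± 4.18 CPM in shFOXA2 and 76.7 ± 4.2 CPM in shNC (SD, n = 3 each), 1.40-fold lower in shFOXA2. The log2 fold change was -0.49 (SE 0.06, edgeR adjusted p = 9.54e-09), larger in size than that of 82.4% of genes tested. It stayed called in each alternative tried, between -0.56 and -0.45. FAM69B, whose gene body overlaps SNHG7 on the opposite strand, had 10.5 ± 0.999 CPM in shFOXA2 and 13.3 ± 0.778 CPM in shNC, a log2 fold change of -0.33 (edgeR adjusted p = 0.0303). The library kit marks strand, but no source used here says whether the counting used it, so reads of the overlap cannot be told apart.

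SNHG8, which hosts SNORA24, had 41.5, 36.8 and 35.7 CPM in shFOXA2, against 43.4, 42.9 and 44.1 CPM in shNC. The groups did not overlap, but shFOXA2 replicate 1 stood within 2 CPM of the lowest shNC library. The log2 fold change was -0.19 (SE 0.07, edgeR adjusted p = 0.0347). Leaving out shFOXA2 replicate 2 ended that call (edgeR adjusted p = 0.103), as did leaving out shFOXA2 replicate 3 (0.146), shNC replicate 2 (0.0544) or shNC replicate 3 (0.0942), or using the DESeq2 Wald test (0.110).

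SNHG12, whose introns hold 4 annotated snoRNAs, had 59.9, 58.3 and 59.1 CPM in shFOXA2, against 59.1, 71.7 and 74.8 CPM in shNC. The shFOXA2 libraries were nearly equal, and shNC replicate 1 lay among them, so the groups overlapped. The log2 fold change was -0.21 (SE 0.07, edgeR adjusted p = 0.0156), or -0.32 (adjusted p = 1.75e-05) without shNC replicate 1. It no longer passed when shFOXA2 replicate 2 (edgeR adjusted p = 0.0727), shFOXA2 replicate 3 (0.0544), shNC replicate 2 (0.0722) or shNC replicate 3 (0.124) was left out, or with limma-voom (0.0572). Of its nested snoRNAs, only SNORD99 was matched in the tables by identifier, with 4, 2 and 2 counts in shFOXA2 and 1, 3 and 5 counts in shNC, too few to test. Its overlapping neighbour TRNAU1AP shares 8 bases with it and had a log2 fold change of 0.22 (edgeR adjusted p = 0.119).

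SNHG15, which hosts SNORA9, went the other way. It had 103, 103 and 99.2 CPM in shFOXA2, against 84.8, 91.6 and 98.3 CPM in shNC. The groups did not overlap, although shFOXA2 replicate 3 and shNC replicate 3 were within 1 CPM of each other. The log2 fold change was 0.16 (SE 0.05, edgeR adjusted p = 0.0141), or 0.09 (adjusted p = 0.180) without shNC replicate 1. Nor did it pass with shFOXA2 replicate 1 (edgeR adjusted p = 0.0616) or shFOXA2 replicate 2 (0.0521) left out, with no filter on low counts (0.0608) and with the DESeq2 Wald test (0.0685). Within each library, the RPKM of SNHG15 divided by that of SNHG7 was 2.31, 2.41 and 2.00 in shFOXA2 and 1.29, 1.37 and 1.63 in shNC, a ratio that does not depend on how libraries are scaled.

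**Figure D1:**
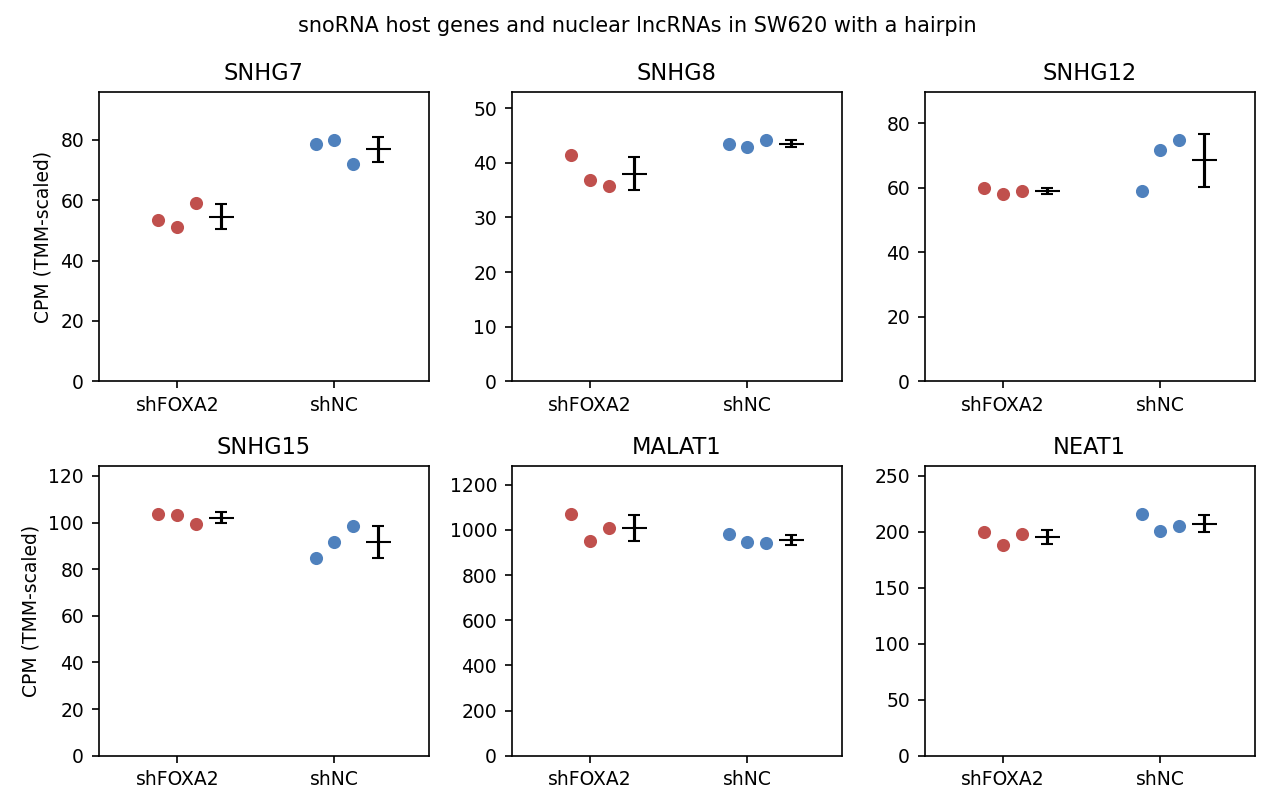
Level of each gene in CPM (vertical axis, from 0) in the 3 shFOXA2 libraries (left) and the 3 shNC libraries (right) of SW620, one panel per gene, with replicates 1 to 3 from left to right and the mean ± SD beside them. SNHG7 shows the widest gap, with shFOXA2 at 51.1 to 59.2 CPM and shNC at 71.9 to 79.8 CPM, and the MALAT1 groups overlap.

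MALAT1, the speckle RNA, was the most abundant of the 6. It had 1068, 953 and 1009 CPM in shFOXA2, against 981, 947 and 940.4 CPM in shNC, and the groups overlapped. The log2 fold change was 0.08 (SE 0.04, edgeR adjusted p = 0.142). Without shFOXA2 replicate 2, which was the lowest of its group, it was 0.12 (adjusted p = 0.0406), and without shFOXA2 replicate 1, the highest, it was 0.04 (adjusted p = 0.627). AP000769.7, which overlaps 396 bases of MALAT1 on the opposite strand, did not pass the filter on low counts.

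NEAT1, the paraspeckle scaffold, had 199, 188 and 197 CPM in shFOXA2, against 215, 201 and 205 CPM in shNC. The shFOXA2 libraries all lay just below the shNC libraries. The log2 fold change was -0.09 (SE 0.04, edgeR adjusted p = 0.118), and with no filter on low counts it was -0.12 (adjusted p = 0.0489). The ratio of MALAT1 to NEAT1 in RPKM was 14.0, 13.3 and 13.4 in shFOXA2 and 11.9 to 12.3 over the 3 libraries of shNC, so each shFOXA2 library had the higher ratio.

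**Figure D2:**
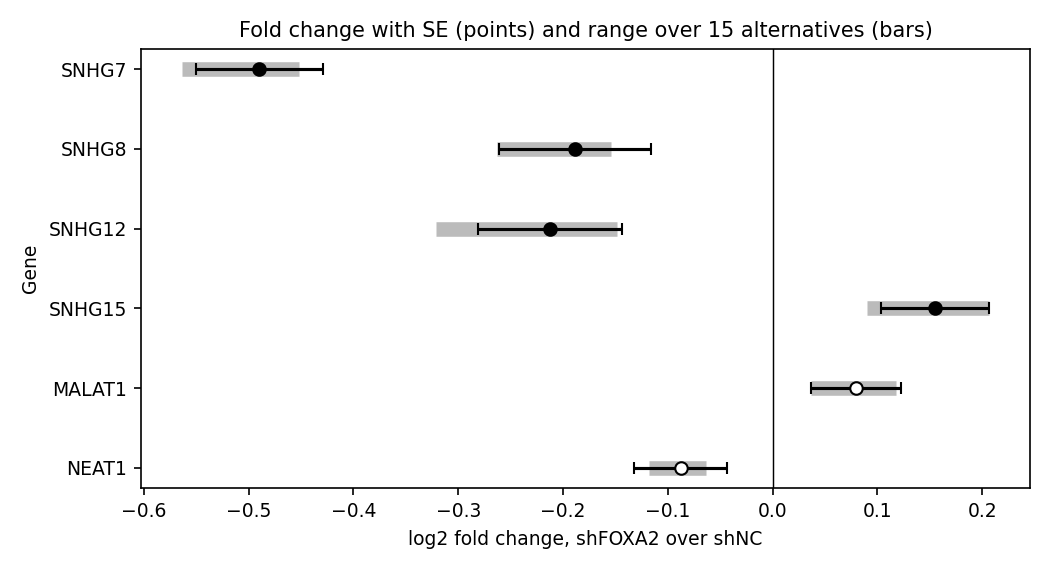
Log2 fold change of each gene, shFOXA2 over shNC (horizontal axis), as points with the SE, filled where the edgeR adjusted p was under 0.05 and open otherwise. Grey bars span the value over the 15 alternatives for each gene. SNHG7 lies farthest from 0, at -0.49, and the bars of SNHG8, SNHG12, SNHG15, MALAT1 and NEAT1 all stay on one side of 0.

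Other noncoding snoRNA host genes were less complete in the tables, with 7 of 20 listed and 6 tested. Of these, 3 fell and 0 rose, with a median log2 fold change of -0.21. C6orf48 had 84.1 ± 3.32 CPM in shFOXA2 and 105 ± 3.52 CPM in shNC (log2 fold change -0.33, edgeR adjusted p = 6.66e-07). ZFAS1, which hosts C/D box snoRNAs, had 108 ± 5.75 CPM in shFOXA2 and 127 ± 3.07 CPM in shNC (-0.23, adjusted p = 0.000114). SNHG9 was low, at 2.61 CPM in shFOXA2 and 4.01 CPM in shNC (-0.59, adjusted p = 0.0344). SNHG3, SNHG10 and EPB41L4A-AS1 did not pass the test, with log2 fold changes of -0.07, -0.18 and -0.08.

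Protein-coding hosts moved in both directions, with 7 of 22 higher, 5 lower and a median of 0.03. The chaperone HSPA8 (0.36) and the splicing factor subunit SF3B3 (0.34) rose, as did WDR43 (0.21), a ribosome assembly factor, and the translation elongation factor EEF2 (-0.38) fell. Genes with a terminal oligopyrimidine tract that mostly encode translation factors had 1 of 15 higher and 6 lower, with a median of -0.05. Besides EEF2, the RNA-binding protein HNRNPA1 (-0.67), EEF1D (-0.15) and the initiation factor EIF4B (-0.15) fell.

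Proteins that assemble with snoRNAs had 1 of 16 higher and 8 lower, with a median of -0.07. Fibrillarin, FBL, the methyltransferase of C/D box particles, had 240.0 ± 13.1 CPM in shFOXA2 and 292 ± 8.25 CPM in shNC (log2 fold change -0.28, edgeR adjusted p = 1.24e-06). The assembly factors RUVBL2 (-0.32) and SHQ1 (-0.37) and the pseudouridine synthase DKC1 (-0.16), itself a snoRNA host, also fell. Nonsense-mediated decay factors had 3 of 15 higher and 5 lower, with a median of -0.03. The kinase SMG1 (0.38) and the cap-binding subunit NCBP1 (0.30) rose, whereas SMG9 (-0.41), a partner of that kinase, and the helicase UPF1 (-0.21) fell.

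Paraspeckle proteins had 2 of 17 higher and 4 lower, with a median of -0.02, and all 6 calls were small. PSPC1 (-0.23), HNRNPUL1 (-0.14) and CPSF6 (-0.14) fell and HNRNPH3 (0.13) rose. SFPQ (-0.07, edgeR adjusted p = 0.206) and NONO (0.02, adjusted p = 0.710), which NEAT1 binds in paraspeckles, did not pass. Nuclear speckle proteins had 2 of 16 higher and 3 lower, with a median of 0.02, with SON (0.23) and SRRM2 (0.11), core speckle proteins, higher and the splicing factors U2AF2 (-0.30), RNPS1 (-0.19) and SRSF5 (-0.16) lower.

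Other long noncoding RNAs had 1 of 9 higher and 3 lower, with a median of -0.12. MIAT had 8.02 ± 1.09 CPM in shFOXA2 and 15.5 ± 1.91 CPM in shNC (log2 fold change -0.94, edgeR adjusted p = 1.33e-07), and CRNDE (-0.43) and LINC00657 (-0.12) also fell. KCNQ1OT1, a nuclear RNA of an imprinted locus, rose (0.26, adjusted p = 0.000139). None of 5 small structural RNAs without a poly(A) tail passed the edgeR test or the DESeq2 and limma-voom tests, 0 had an unadjusted edgeR p under 0.05, and their median was -0.10. Of 31 symbols of snoRNAs nested in the 10 listed genes, 20 had a row, and 1 of these passed the filter on low counts. It was SNORD87, at a log2 fold change of -0.11 (edgeR adjusted p = 0.880), which the annotation does not place within any of the 6 measured genes. Epithelial and colon markers had 4 of 9 higher and 2 lower, with a median of 0.16, among them the intestinal transcription factor CDX2 (0.69) higher and EPCAM (-0.13) lower, and the markers of other cell types had 1 higher and 1 lower of 4 tested, COL1A1 (1.06) and ALB (-1.04), both under 5 CPM in either group, with a median of -0.06. The part of these markers in the values of the 6 genes was not tested.

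The second question was how the 6 RNAs ranked against each other, which needs a value per length. In RPKM, counts scaled by the listed gene length and the library total, MALAT1 ranked highest in all 8 libraries. Mean levels in shFOXA2 were 115 ± 6.93 RPKM for MALAT1, 40.8 ± 3.24 for SNHG8, 27.7 ± 0.50 for SNHG15, 17.3 ± 0.31 for SNHG12, 12.4 ± 1.03 for SNHG7 and 8.48 ± 0.32 for NEAT1 (SD, n = 3). In shNC they were 110 ± 0.81 RPKM for MALAT1, 47.1 ± 1.2 for SNHG8, 25.1 ± 2.23 for SNHG15, 20.3 ± 2.76 for SNHG12, 17.7 ± 0.84 for SNHG7 and 9.09 ± 0.21 for NEAT1 (SD, n = 3). SNHG12 and SNHG7 overlapped in shNC and changed places in replicate 1, whereas in shFOXA2 SNHG12 was above SNHG7 in each library.

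Untreated cells had another order. In untreated SW620, MALAT1 was at 724 RPKM, NEAT1 at 40.0, SNHG8 at 26.8, SNHG15 at 13.3, SNHG7 at 11.4 and SNHG12 at 10.5. Untreated SW480 had MALAT1 at 805 RPKM, NEAT1 at 65.3, SNHG8 at 36.3, SNHG15 at 14.1, SNHG7 at 10.0 and SNHG12 at 7.20. NEAT1 thus ranked second in both untreated libraries and lowest of the 6 in all 6 hairpin libraries. That rank depends on the length used, 22767 bases, which is the span of the long form although both forms are counted. In CPM, which ignores length, NEAT1 had 188 to 215 in the hairpin libraries. That was above every SNHG gene, the highest of which was SNHG15 at 84.8 to 103 CPM.

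**Figure D3:**
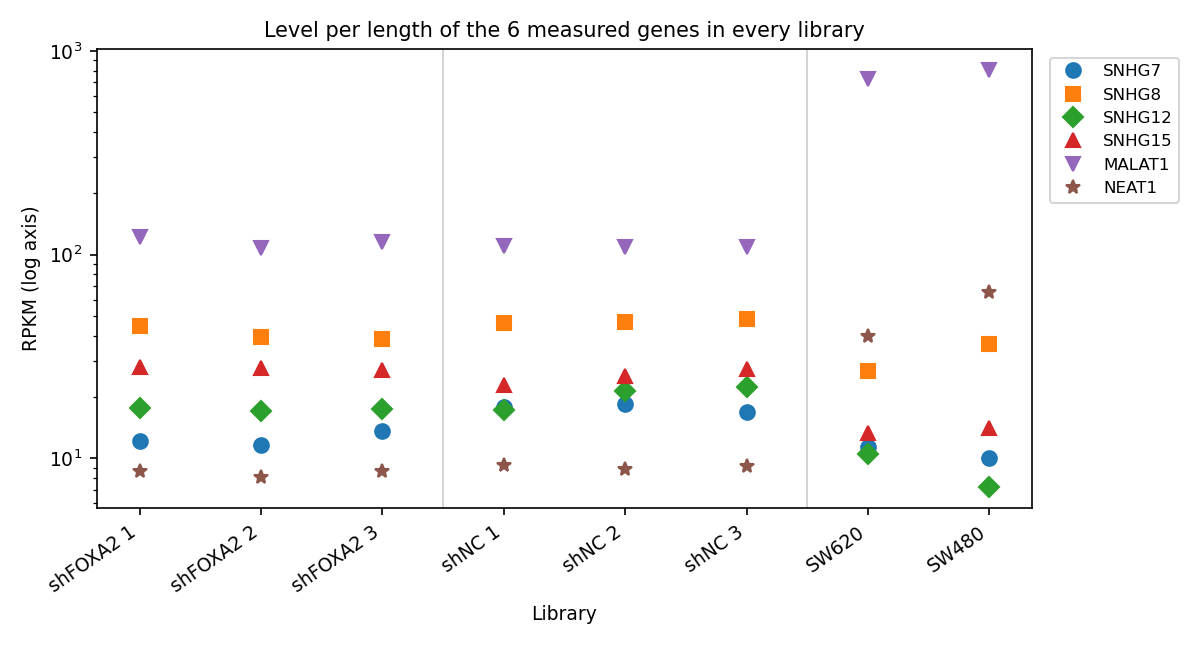
RPKM of each gene (vertical log axis) in each of the 8 libraries, shFOXA2 and shNC replicates 1 to 3 and then untreated SW620 and SW480. MALAT1 lies at 108 to 122 RPKM in the hairpin libraries and at 724 and 805 RPKM in the untreated libraries, and NEAT1 moves with it, while the SNHG genes lie in one band from 7.20 to 48.4 RPKM.

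The shNC libraries and untreated SW620 are the same line with and without a control hairpin. Their values were set side by side after this gap had been seen and without a test, since the untreated line has 1 library. MALAT1 was 6.60-fold lower in shNC and NEAT1 4.40-fold lower. Of 16687 genes with at least 20 counts in untreated SW620 and summed over shNC, 176 (1.05%) were at least 4-fold lower in shNC. The snoRNA host genes were higher in shNC, by 1.93-fold for SNHG12, 1.90-fold for SNHG15, 1.76-fold for SNHG8 and 1.55-fold for SNHG7, between percentiles 87.7 and 94.0 of all these genes. The median log2 ratio over all genes was 0.00. SNHG7 was at a mean of 12.4 RPKM in shFOXA2 and 17.7 in shNC, and at 11.4 in untreated SW620. SNHG8, SNHG12 and SNHG15 were higher in both hairpin groups than in untreated SW620. FOXA2 was at 18.9 to 20.2 RPKM in shNC and 31.6 in untreated SW620, so shNC did not stand at the untreated level for either SNHG7 or FOXA2.

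Other genes shared parts of this split. KCNQ1OT1 was at 0.780 RPKM in shNC and 4.58 RPKM in untreated SW620, 5.87-fold lower in shNC, whereas TUG1 was 1.27-fold lower and LINC00657 had 105 RPKM in shNC and 121 RPKM in untreated SW620. FTX was 2.77-fold higher in shNC. Of the other host genes ZFAS1 was 1.40-fold higher and EPB41L4A-AS1 1.66-fold higher, while SNHG3 was 1.31-fold lower. The 5 small structural RNAs without a poly(A) tail that had enough counts were also lower in shNC, over a wide range. RPPH1, the RNA of RNase P, was 4.56-fold lower, less than MALAT1, and RN7SL1 was 6.94-fold lower. RN7SL2 was 10.8-fold lower, RN7SK 18.4-fold and RMRP, the RNA of RNase MRP, 58.2-fold. The 6 RNAs of that list took 0.0395% to 0.0778% of counts in shNC and 0.527% in untreated SW620, and mitochondrially encoded genes took 4.46% to 4.82% in shNC and 11.1% in untreated SW620. The labels give 1 library protocol for all samples, hairpin status and library type cannot be told apart here, and the part of these RNA classes in the MALAT1 and NEAT1 values was not tested.

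Over all 8 libraries, MALAT1 and NEAT1 had nearly the same profile, with a root mean square difference of 0.19 between their centred log2 CPM values. This measure mostly reflects the split between untreated and hairpin libraries. In SW480 and SW620 MALAT1 was at 2.22 and 2.00 and NEAT1 at 2.33 and 1.55, and both were below 0 in every hairpin library. Within the comparisons they differed, with hairpin log2 fold changes of 0.08 and -0.09 and line ratios of 0.870 and 0.591. The 3 genes nearest to MALAT1 among 12536 candidates were MT-RNR2, the mitochondrial large ribosomal RNA (0.11), MT-TR, a mitochondrial transfer RNA (0.13), and ZNF460 (0.15). Those nearest to NEAT1 were MT-RNR2 (0.18), MT-ATP8, a subunit of ATP synthase (0.18), and MALAT1 (0.19). From MALAT1 the 4 SNHG genes lay 1.42 to 1.69 away on the same measure, and 0.23 to 0.38 from one another.

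The third comparison set untreated SW620 beside untreated SW480, with 1 library each and no test. Each ratio is given with an exact 95% interval, which covers counting error only. None of the 6 genes was 2-fold apart between the lines on a scale with 1 CPM added, where 16.8% of 21343 genes with at least 20 counts in either line were, 7.99% higher and 8.85% lower in SW620. At 4-fold the share was 5.14%, again with none of the 6. FOXA2, by contrast, was 18.0-fold higher in SW620 (16.1 to 20.2).

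NEAT1 differed most. It had 87302 counts in SW620 and 107580 in SW480, or 897 and 1518 CPM, a ratio of 0.591 (0.586 to 0.596). SNHG8 had 2372 counts in SW620 and 2424 in SW480, a ratio of 0.713 (0.673 to 0.755). SNHG12 was higher in SW620, with 3405 counts in SW620 and 1759 in SW480, a ratio of 1.41 (1.33 to 1.49). The counting intervals of all 6 genes exclude 1, but how far cultures of 1 line differ was not measured.

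The others were closer. MALAT1 had 604978 counts in SW620 and 506715 in SW480, a ratio of 0.870 (0.866 to 0.873), and SNHG15 had a ratio of 0.911 (0.872 to 0.951). SNHG7, which fell most under the FOXA2 hairpin, had a ratio of 1.10 (1.05 to 1.15), from 4732 counts in SW620 and 3147 in SW480. The ratio of MALAT1 to NEAT1 in RPKM was 18.1 in SW620 and 12.3 in SW480.

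**Figure D4:**
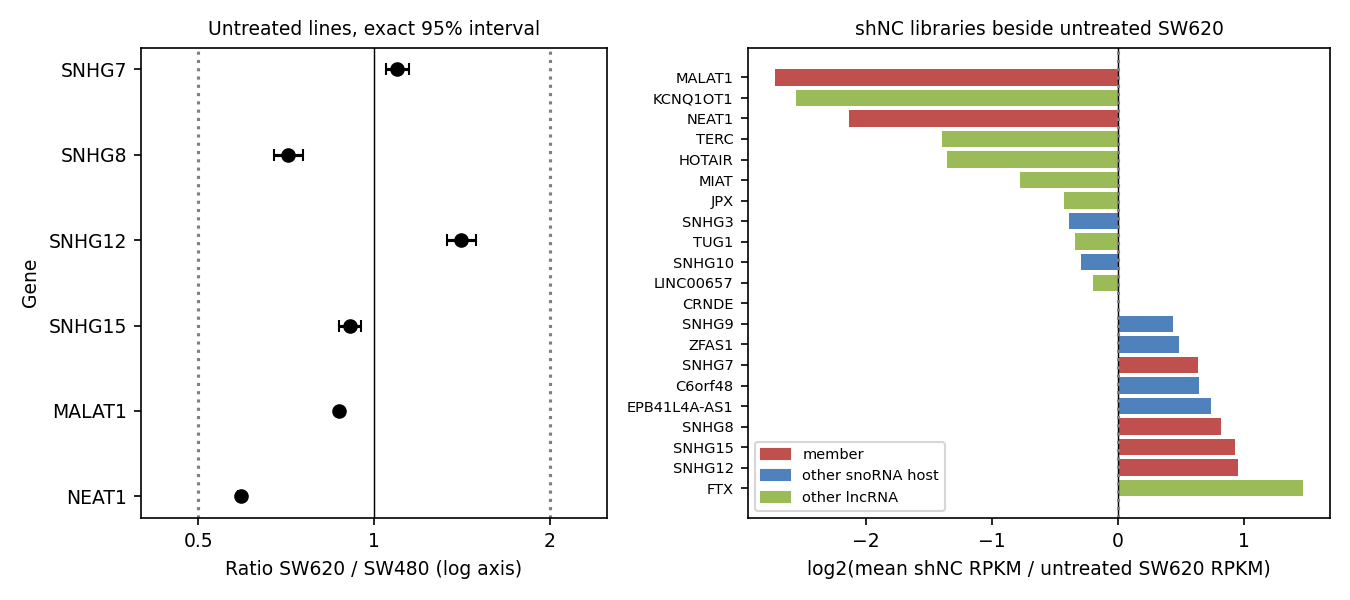
Left, ratio of untreated SW620 to untreated SW480 for each gene (log axis) with its exact 95% counting interval and dotted lines at 2-fold in either direction. Right, log2 ratio of mean shNC RPKM to untreated SW620 RPKM for the 6 genes (red), other snoRNA host genes (blue) and other long noncoding RNAs (green), with a dotted line at the median of all genes. MALAT1, KCNQ1OT1 and NEAT1 are lowest in shNC relative to untreated SW620, and all 4 SNHG genes of this report lie to the right of 0.

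Among other noncoding host genes, none of 6 was 2-fold apart between the lines, and their median log2 ratio was -0.03, beside 0.02 for all genes. EPB41L4A-AS1 had a ratio of 0.555 (0.528 to 0.584), and C6orf48, ZFAS1 and SNHG3 had ratios of 1.12, 1.12 and 1.10. Of 9 other long noncoding RNAs, MIAT was 4.50-fold higher in SW620 (4.05 to 5.00), and HOTAIR, a transcript of the HOXC cluster, had a ratio of 0.103 (0.0902 to 0.117). LINC00657 had a ratio of 0.611 (0.604 to 0.617).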

How the data were processed

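RNA sequencing of total RNA was analysed from 8 deposited tables, 1 per library. Each deposited table gives raw counts, a gene length in bases and the authors' RPKM for 42713 entries, and the RPKM equals the count scaled by that length and the table's total within a relative tolerance of 1e-04 for 100% of genes above 20 counts. HOMER and hg19 are named in the submitters' processing notes without a role. The labels name a directional kit. No aligner, counter or annotation is named in the sources used here.

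For a repeated symbol the entry with the highest summed count was used. The hairpin libraries were compared by quasi-likelihood in edgeR 4.0.16 under R 4.3.3 (two-sided, robust), with TMM scaling and the default filter. SE is the size of the log2 fold change over the square root of F, and the biological coefficient of variation was 6.59%. CPM is relative to the TMM-scaled total, within the 6 hairpin or the 2 untreated libraries. Untreated lines were compared as ratios, with 1 CPM added for counts of genes past 2-fold. Chi-square per degree of freedom between replicates was 1.66 to 4.61, so no 2 libraries agreed within sampling noise. Profiles used TMM over all 8 libraries, 0.5 counts added and a mean of at least 2 log2 CPM. Locations came from GENCODE on GRCh38 and promoters from RefSeq on GRCh38.p14, not the files' build. Scripts were tested on simulated data with 1 coefficient of variation for all genes. In the simulated hairpin comparison 22 of 50 genes changed 1.25-fold were called, and 4 of 15730 unchanged genes, so small changes can go uncalled. Figures used Python 3.11.15 and matplotlib 3.10.9.

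The genes and lists were chosen with earlier results of these data known. The text names the 6 measured genes, FOXA2, up to 4 called genes per list by p, counted neighbours, and the 3 nearest profiles of MALAT1 and NEAT1. SRRM2, genes named for not passing, and list genes named in the untreated libraries, were chosen after their values were seen. Alternatives were other scalings (DESeq2 1.42.0 size factors, total counts), filters, tests (DESeq2, limma-voom in limma 3.58.1), thresholds, summed symbols, a replicate block and each hairpin library left out. Scaling without mitochondrial and small structural RNAs was added after seeing the data, as were the comparison of shNC with untreated SW620 and the pyrimidine run of 5 letters.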

Additional observations from a re-analysis of the deposited data

How the results depend on the processing

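Of the 6 genes, the number called between shFOXA2 and shNC was 4 as reported, 1 at an adjusted p of 0.01, 2 with DESeq2 Wald and 2 to 3 with a hairpin library left out. SNHG7 was called in each of its 15 alternatives, and no gene of the 6 changed direction in either comparison. Of 16100 genes tested, 6280 were called as reported, 4725 at an adjusted p of 0.01 and 4892 with DESeq2 Wald. With a library left out, 5299 to 5872 of all genes tested were called, so the count fell over all genes as well. The number of called decay factors was 4 with DESeq2 Wald, and that of markers of other cell types 1 with DESeq2 Wald, 1 with limma-voom and 1 to 2 with a library left out. With a library left out, 3 to 5 paraspeckle proteins and 3 to 6 epithelial markers were called, both lowest without shFOXA2 replicate 1. The causes were not tested. Between the untreated lines, 3595 genes were 2-fold apart with 1 CPM added, 6165 with 0.1 CPM, which lets low counts pass, and 1098 at a fold of 4, and none of the 6 genes was in any of these. MALAT1 and NEAT1 moved beyond their counting interval there with total counts, to log2 ratios of -0.15 and -0.71, and MALAT1 with DESeq2 size factors, to -0.21. Same-numbered hairpin libraries did not deviate together, with correlations of -0.0468, -0.00511 and -0.00443. Every gene counts equally in these values, noisy ones included, so they cannot show whether such libraries shared a culture or day. With the replicate block 6139 genes passed and 4 of the 6. Of the nested snoRNA symbols with a row, 1 of 20 could be tested between the hairpin groups and 3 reached 20 counts in either of the deeper untreated libraries, and 1 library per line left the line ratios without a replicate check.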
